A study of Homo sapiens with 6 samples.

Results

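The Hippo pathway and its effectors YAP and TAZ were examined in cells of the established human glioma line U251, which had been cultured on electrospun nanofibers of poly-caprolactone, a polyester. The genes were taken from a list of 34 and comprised the coactivators YAP1 and WWTR1, the DNA-binding TEAD factors, the kinases with their scaffolds, and genes known as targets of YAP and TAZ. A gene was measured when a probe set of the array is annotated to it alone, and the brightest such probe set, by its mean of the 6 arrays, stood for the gene. This held for 33 of the 34 genes. NUAK2 had only a probe set annotated to several genes and was not analysed here, and AMOT and DLC1 lay below the median of every array and were not tested. The remaining 31 genes, 16 pathway parts and 15 targets, lay above the median on all 6 arrays and were tested among 12381 genes.

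Total RNA of 3 cultures on highly aligned fibers and 3 cultures on randomly oriented fibers was read on Affymetrix HG-U133 Plus arrays, 1 array per culture. All cultures grew for 24 h in medium with 10% fetal bovine serum and received no other treatment, so by the labels the groups differ in fiber orientation only. The design text speaks of 3 independent cultures, all of the same line, and in bulk RNA fewer cells of a kind and less RNA per cell cannot be told apart. Values are log2 units after RMA, and a difference is the mean of the aligned minus the mean of the random arrays.

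In the Hippo pathway the kinases STK3 and STK4, with the adaptor SAV1, activate LATS1 and LATS2, which work with MOB1A and phosphorylate YAP1 and WWTR1 (TAZ), so that these leave the nucleus or are degraded. When the kinases are off, as in spread cells on stiff or tension-bearing substrates, the coactivators enter the nucleus, bind TEAD factors and drive genes such as CCN1, CCN2 and ANKRD1. Much of this control acts on the proteins, which arrays of RNA do not read. In glioma, YAP and TAZ are known from mesenchymal tumours and from invasive growth.

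The arrays differed in ways that touch every result here. Aligned 3 and random 3 lay farthest from the mean of the other arrays, with root mean square distances of 0.345 and 0.222 log2 units against 0.133 to 0.174 for the other four. The 3' minus 5' signal of GAPDH and beta-actin lay between 0.0795 and 0.223 on all arrays. Of 10 glioma and astrocyte markers, 8 were above the filter, among them vimentin, nestin, SOX2 and CD44, while S100B and AQP4 were below it. Of 12 markers of epithelial, endothelial, leukocyte and neuronal cells, 6 were below the filter (EPCAM, CDH1, KRT19, CDH5, PTPRC and CD14) and 6 above it. Those above it were the endothelial PECAM1 and VWF, the leukocyte CD3E, and the neuronal RBFOX3, SYT1 and SNAP25. VWF and RBFOX3 lay above the array median on only 4 and 3 of the 6 arrays. The summed log2 value of the 3 neuronal markers was 19.9 to 20.3 on aligned and 19.0 to 19.6 on random arrays, with SYT1 differing by 0.56 ± 0.14 (SE), higher on every aligned than on every random array. The summed value of the 10 glioma and astrocyte markers was 91.8 to 96.1 on aligned and 95.99 to 98.4 on random arrays. Within it SOX9 and SOX2 were lower on every aligned than on every random array, with differences of -0.53 ± 0.18 and -0.44 ± 0.18 (SE). So was S100B, under the filter, with -1.13. GFAP differed by -0.81 ± 0.38, and its groups overlapped. It lay above the array median on only 3 of the 6 arrays and so just met the filter. The sums of the endothelial, leukocyte and epithelial markers, 3 each, were 16.2 to 17.0, 14.6 to 14.7 and 11.3 to 11.4 on aligned and 15.97 to 16.4, 14.1 to 14.5 and 11.1 to 11.8 on random arrays. The part of these markers in the results below was not tested.

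With all 6 arrays, 0 of 12381 genes (0%) and so none of the 31 pathway genes had an adjusted p under 0.05 in limma, and 1303 genes (10.5%) had an unadjusted p under 0.05. At that unadjusted threshold there were 4 of the 31, namely NT5E and DOCK5 above and TEAD2 and VGLL4 below the random level, a share of 12.9% that lies near the background. The background was 4.72% of genes for higher and 5.81% for lower values on aligned fibers. No overlap between substrates, with aligned fibers higher, was seen in 4 of the 31 genes (NT5E, DOCK5, TEAD4 and AMOTL1) and with aligned fibers lower in 2 (TEAD2 and VGLL4), against 8.71% and 9.33% of all genes. All statements on single genes below are therefore descriptions of 6 arrays and carry no call over all genes.

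**Figure D1:**
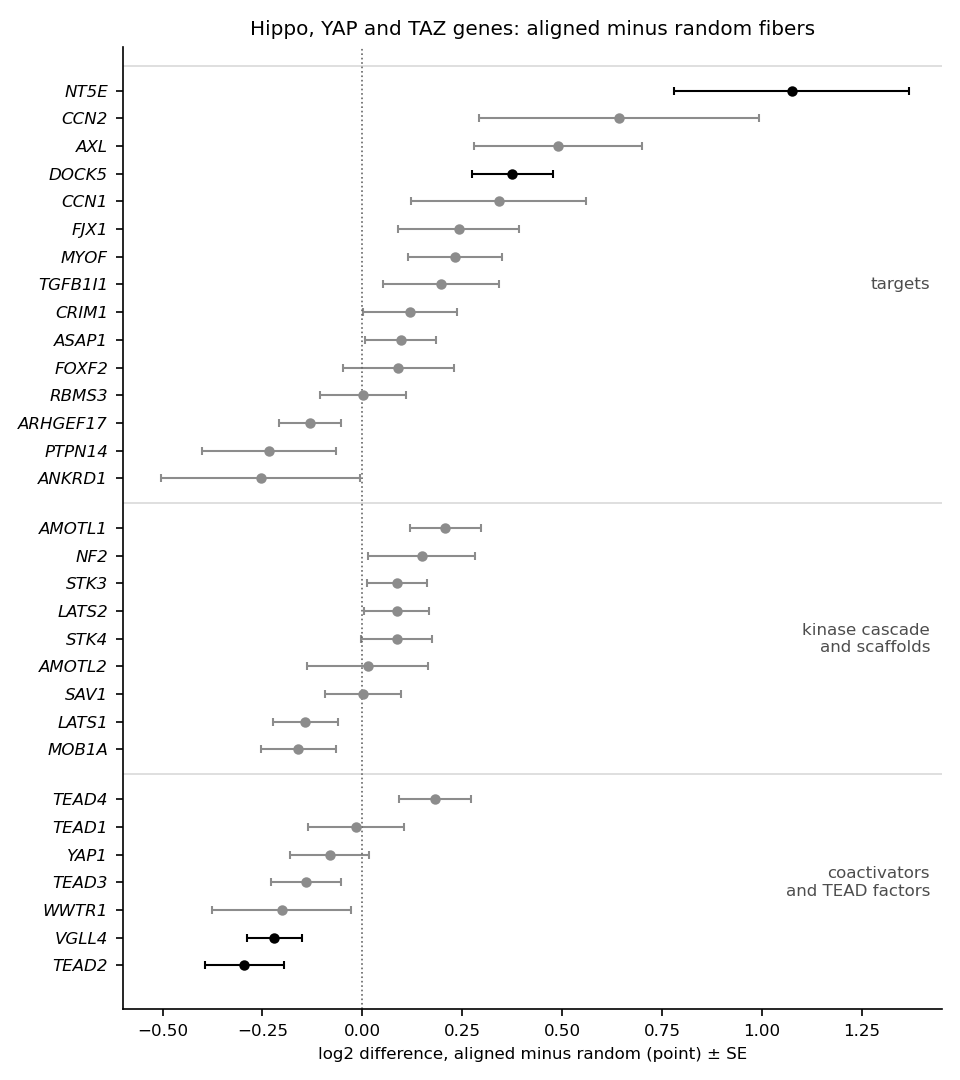
Log2 difference between aligned and random fibers (point, horizontal axis) with its standard error from limma (bar) for 31 genes, ordered within their role. Black points mark the 4 genes with an unadjusted p under 0.05, and no gene had an adjusted p under 0.05. NT5E stands farthest to the right at 1.07, and TEAD2 farthest to the left at -0.30.

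Among the coactivators and TEAD factors, 6 of 7 tested genes had a negative difference, with a median of -0.14 against 0.01 over all genes tested. In 5 of the 7 (71.4%) aligned 3 was the lowest of the 6 arrays, against 26.5% of all genes. Without aligned 3 the median of the group was -0.01. The values of YAP1 and WWTR1 overlapped between the substrates. YAP1 read 9.40, 9.55 and 9.26 on aligned arrays 1, 2 and 3 and 9.37, 9.50 and 9.58 on random arrays 1, 2 and 3, a difference of -0.08 ± 0.10 (SE). Its other 2 probe sets gave the same picture, with all 3 between -0.08 and -0.01. WWTR1, which encodes TAZ, read 10.91, 10.65 and 10.20 on aligned and 10.91, 10.81 and 10.64 on random arrays, a difference of -0.20 ± 0.17 (SE). Aligned 3 was the lowest array for both coactivators, and without it their differences were -0.01 and -0.01.

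TEAD2 and VGLL4 were lower on every aligned than on every random array. TEAD2 is a member of the TEAD family and read 7.46, 7.35 and 7.13 on aligned against 7.62, 7.55 and 7.66 on random arrays. The difference was -0.30 ± 0.10 (SE; unadjusted p = 0.0186, adjusted p = 0.463 in limma), or 1.23-fold in favour of random fibers. The probe sets of TEAD2 did not all run the same way, since 3 of the 4 above the filter had differences down to -0.30 and the other had 0.04. In the probe set at 0.04 every aligned array lay above every random array. In the probe set at -0.28 the groups overlapped. VGLL4, a cofactor that competes with YAP for TEAD binding and so restrains its activity, read 9.82, 9.85 and 9.73 on aligned against 10.01, 10.02 and 10.03 on random arrays. The 3 random arrays were almost equal (SD 0.01), and all aligned arrays lay below them. Its difference was -0.22 ± 0.07 (SE; unadjusted p = 0.0142, adjusted p = 0.463 in limma), or 1.17-fold. The second probe set differed by -0.11, and on it the groups overlapped. VGLL4 had an unadjusted p under 0.05 in all 6 fits that left out 1 array and TEAD2 in 5 of them, whereas without both arrays numbered 3 the unadjusted p was 0.0558 and 0.0803 in limma. With the mean of all probe sets above the filter, neither gene had an unadjusted p under 0.05 in limma.

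The other TEAD genes were not alike. TEAD4 read 7.78, 7.80 and 8.03 on aligned and 7.63, 7.77 and 7.66 on random arrays, so that the groups did not overlap although aligned 1 and 2 lay close to random 2. Its difference was 0.18 ± 0.09 (SE, unadjusted p = 0.0837 in limma), 0.10 without aligned 3. TEAD1 and TEAD3, which carry the same DNA-binding domain, had differences of -0.02 ± 0.12 and -0.14 ± 0.09 (SE), and their groups overlapped. The direction of TEAD1 turned in 3 of the 6 fits without 1 array, and its other probe set above the filter differed by 0.19.

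In the kinase cascade and its scaffolds the differences were small, between -0.16 and 0.21, and 0 of 9 tested genes had an unadjusted p under 0.05 in limma or an adjusted one. Of the 9, 7 had a positive and 2 a negative difference, with a median of 0.09. The upstream kinases STK3 and STK4 differed by 0.09 ± 0.07 and 0.09 ± 0.09 (SE) and their adaptor SAV1 by less than 0.01. Above the filter, the 5 probe sets of STK4 ran from -0.11 to 0.12 and the 4 of SAV1 from -0.12 to 0.00. LATS1 and MOB1A, the kinase that phosphorylates YAP and a coactivator of it, were the negative ones with -0.14 ± 0.08 and -0.16 ± 0.09. NF2 encodes merlin, a membrane-linked activator of the cascade. Its difference was 0.15 ± 0.13 with 6 of 7 probe sets positive, and 0.01 without random 3.

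The angiomotin proteins hold YAP outside the nucleus and at cell junctions. AMOTL1 read 8.14, 8.06 and 8.25 on aligned and 7.96, 8.04 and 7.83 on random arrays, a difference of 0.21 ± 0.09 (SE, unadjusted p = 0.0510 in limma). The groups of AMOTL1 did not overlap, though aligned 2 lay close to random 2, and its 3 probe sets differed by -0.06 to 0.21. AMOT read between 4.44 and 4.94 on all arrays, below the median of each.

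LATS2 and AMOTL2 restrain YAP and are at the same time induced by it, as negative feedback. LATS2 read 9.56, 9.43 and 9.50 on aligned and 9.52, 9.40 and 9.32 on random arrays, a difference of 0.09 ± 0.08 (SE), with all 3 probe sets between 0.06 and 0.09. AMOTL2 read 9.33, 9.20 and 9.21 on aligned and 9.47, 9.36 and 8.87 on random arrays. Its difference of 0.01 ± 0.15 combined a low random 3 with random 1 and 2 that lay above every aligned array, and without random 3 it was -0.17. Neither feedback gene separated the substrates.

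**Figure D2:**
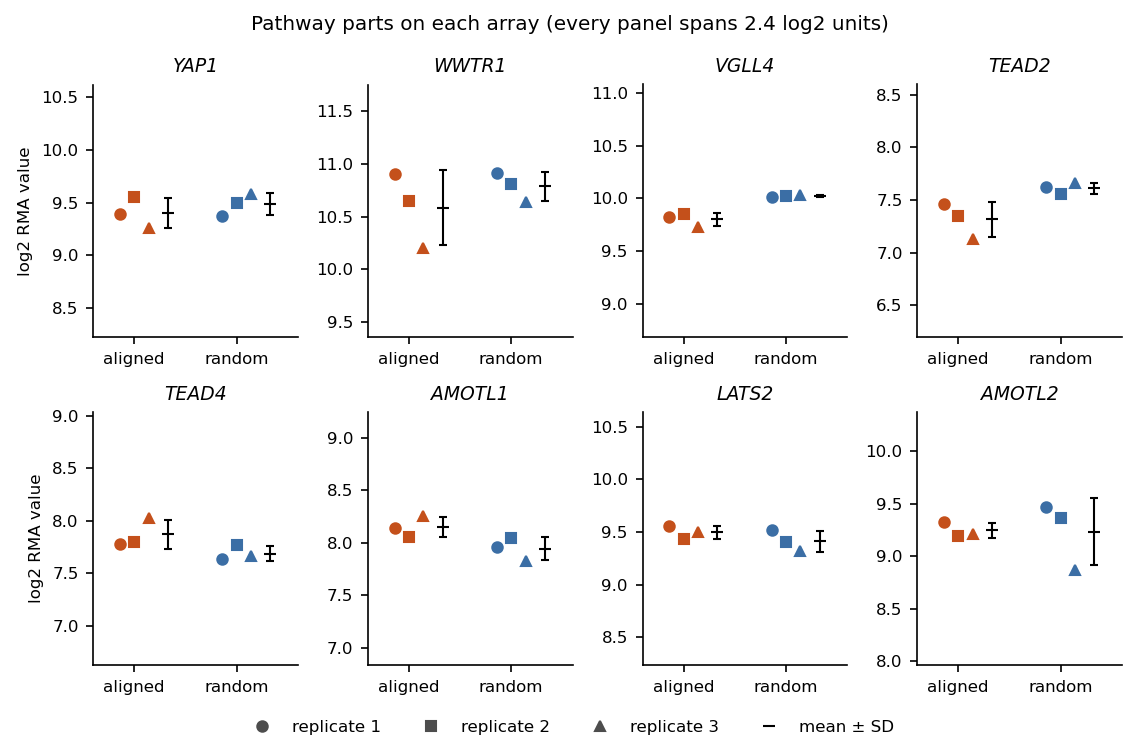
Log2 RMA values (vertical axis) of 8 pathway parts on the aligned (orange) and random (blue) arrays, with symbols for replicate numbers and a bar for mean ± SD of 3 arrays; each panel spans the same range. VGLL4 and TEAD2 are lower on all 3 aligned arrays, YAP1 and LATS2 overlap, and AMOTL2 has a single low random array at 8.87.

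Of the 15 tested targets, 12 had a positive and 3 a negative difference, and their median was 0.20, against -0.01 for the 16 pathway parts and 0.01 for all genes tested. The median size regardless of direction was 0.23 for targets, 0.14 for pathway parts and 0.10 for all genes. The list was drawn up with earlier results of these arrays known, so these medians are descriptions. Only NT5E and DOCK5 had an unadjusted p under 0.05, or 13.3% of the targets against 10.5% of all genes. With the replicate number as a block there were 5 of 15, the others being AXL (unadjusted p = 0.0173), PTPN14 (0.0204, negative) and MYOF (0.0418), and limma adjusted all of these p-values to 0.362. The background in that fit was 13.6% of all genes.

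NT5E encodes CD73, the surface enzyme that makes adenosine from AMP. It read 9.06, 9.72 and 10.40 on aligned arrays against 8.77, 8.59 and 8.61 on random arrays. All aligned values lay above all random values, and the aligned arrays were spread widely (SD 0.67 against 0.10). The difference was 1.07 ± 0.29 (SE; unadjusted p = 0.00735, adjusted p = 0.463 in limma), or 2.10-fold. All 4 probe sets of NT5E showed it, with 1.07 to 1.19, and in each of them the groups did not overlap. Between arrays of equal number it was 0.29, 1.13 and 1.80, and without aligned 3 it was 0.74. Its unadjusted p was under 0.05 in all 6 fits without 1 array, and 0.0177 without both arrays numbered 3.

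DOCK5, an exchange factor for the small GTPase Rac, read 8.72, 8.64 and 8.82 on aligned and 8.51, 8.35 and 8.19 on random arrays. The groups did not overlap, and the difference was 0.37 ± 0.10 (SE; unadjusted p = 0.00695, adjusted p = 0.463 in limma), or 1.30-fold. All 5 probe sets above the filter were positive, between 0.09 and 0.37. DOCK5 also had an unadjusted p under 0.05 in all 6 fits without 1 array, and its difference stayed between 0.29 and 0.46. Without both arrays numbered 3 it was 0.25 (unadjusted p = 0.0382 in limma). Among the 15 targets, NT5E and DOCK5 were the only ones for which this held.

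AXL, a receptor tyrosine kinase for the ligand GAS6 and a known marker of invasive glioma cells, read 11.89, 12.55 and 12.69 on aligned and 11.72, 12.11 and 11.84 on random arrays. Aligned 1 lay below random 2, so the groups overlapped on this probe set. The difference was 0.49 ± 0.21 (SE; unadjusted p = 0.0502, adjusted p = 0.472 in limma), and the second probe set gave 0.37 with no overlap. All 3 differences between arrays of equal number were positive, at 0.18, 0.44 and 0.85.

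The promoters of CCN2 and ANKRD1 are shown because both genes are textbook TEAD targets and their windows hold more than 1 copy of the TEAD-binding letters, and that of NT5E because it had the largest difference. The sequences are the 250 bases before the transcript start, 5' to 3' on the strand of the gene, from RefSeq on GRCh38.p14: chr6:131951373-131951622 on the minus strand for CCN2, chr10:90921088-90921337 on the minus strand for ANKRD1 and chr6:85449833-85450082 on the plus strand for NT5E. Capitals mark GGAATG or its reverse complement CATTCC, searched on both strands.
CCN2: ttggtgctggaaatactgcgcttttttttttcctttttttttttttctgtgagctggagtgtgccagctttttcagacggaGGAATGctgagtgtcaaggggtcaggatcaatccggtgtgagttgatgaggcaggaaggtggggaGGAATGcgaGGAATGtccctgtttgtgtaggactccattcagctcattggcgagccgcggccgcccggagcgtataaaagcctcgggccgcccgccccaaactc
ANKRD1: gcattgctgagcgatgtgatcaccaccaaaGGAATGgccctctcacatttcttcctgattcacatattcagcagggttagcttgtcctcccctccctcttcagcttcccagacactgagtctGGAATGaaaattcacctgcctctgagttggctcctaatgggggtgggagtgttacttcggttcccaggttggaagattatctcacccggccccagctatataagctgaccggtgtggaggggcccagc
NT5E: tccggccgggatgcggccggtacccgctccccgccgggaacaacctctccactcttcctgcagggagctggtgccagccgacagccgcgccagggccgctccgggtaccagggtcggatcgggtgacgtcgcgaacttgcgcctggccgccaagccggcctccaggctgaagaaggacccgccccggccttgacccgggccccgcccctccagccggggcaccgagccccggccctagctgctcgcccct

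The CCN2 window holds GGAATG 3 times, with first bases at -169, -104 and -95 from the start, and the ANKRD1 window holds it at -220 and -128. The NT5E window holds neither these letters nor their reverse complement. Of the 34 genes, 25 had an entry among the RefSeq promoters, and TEAD1, TEAD4, STK3, CCN1, CRIM1, ARHGEF17, ASAP1, DLC1 and DOCK5 had none. A copy lay in 6 of 14 windows of targets (42.9%), in 2 of 24 windows of pathway parts (8.33%, YAP1 and AMOTL2) and in 4175 of 35116 windows of all promoters (11.9%). The 6 targets were CCN2, ANKRD1, NUAK2, AXL, PTPN14 and FOXF2, whose tested members had differences of both signs. These genes are on the list as known TEAD targets, so the share describes the list. A match is not a site shown to be bound.

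The classical targets CCN1 and CCN2 encode the secreted matrix proteins CYR61 and CTGF, and ANKRD1 encodes an ankyrin repeat protein that goes to the nucleus. CCN2 read 11.51, 11.11 and 11.43 on aligned and 11.26, 11.05 and 9.81 on random arrays. Random 3 was far below the other arrays, and the groups overlapped. The difference was 0.64 ± 0.35 (SE; unadjusted p = 0.107, adjusted p = 0.507 in limma), and 0.19 without random 3.

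CCN1 read 12.45, 12.39 and 12.74 on aligned and 12.49, 12.40 and 11.66 on random arrays, again with random 3 as the low array. On the second probe set of CCN1 the difference was 0.49 and the groups did not overlap, with random 1 and 2 at 11.59 and aligned 1 at 11.59 as well. On the brightest probe set, the one tested, the difference of CCN1 was 0.34 ± 0.22 (SE, unadjusted p = 0.161, adjusted p = 0.552 in limma). It was 0.08 without random 3, and -0.03 without both arrays numbered 3. ANKRD1 went the other way, with 7.77, 7.91 and 7.61 on aligned and 7.94, 8.60 and 7.52 on random arrays. Its groups overlapped, the difference was -0.25 ± 0.25 (SE), and it ranged from -0.51 without random 3 to 0.04 without random 2.

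**Figure D3:**
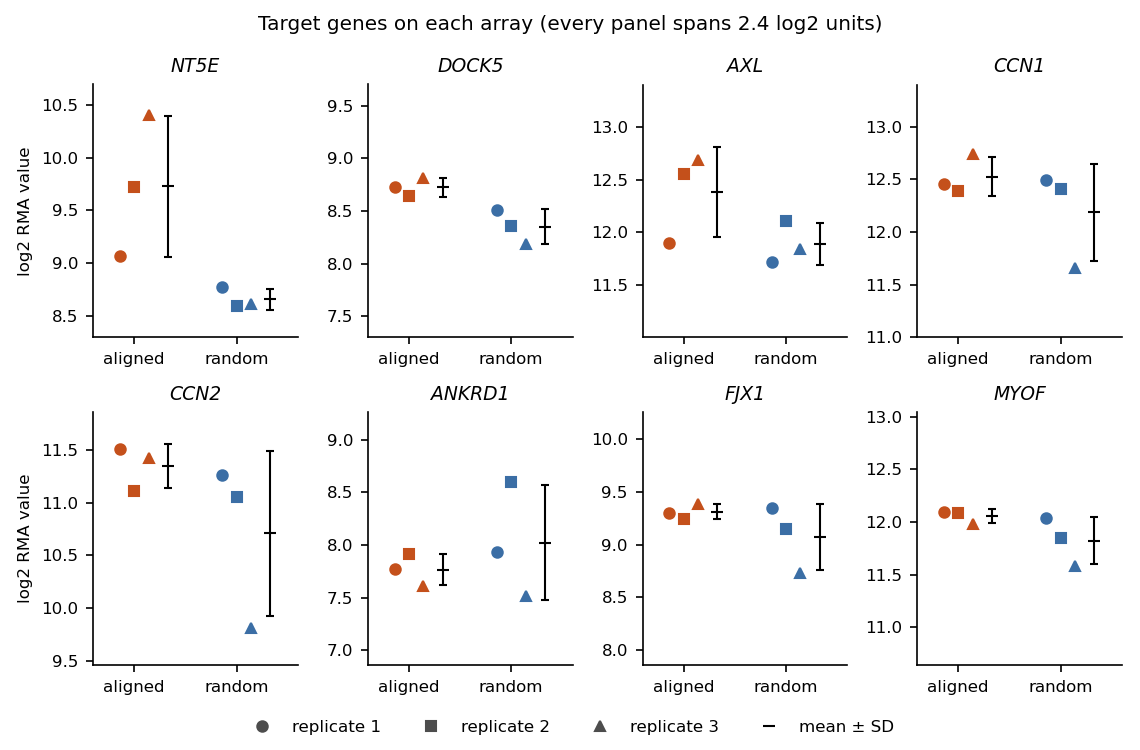
Log2 RMA values (vertical axis) of 8 targets on the aligned (orange) and random (blue) arrays, with symbols for replicate numbers and a bar for mean ± SD of 3 arrays; each panel spans the same range. NT5E and DOCK5 do not overlap between substrates, whereas CCN1, CCN2 and FJX1 have 1 low random array, random 3, and otherwise similar values.

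The remaining targets had smaller differences. FJX1, related to the fly gene four-jointed of the Fat and Dachsous branch, differed by 0.24 ± 0.15 (SE) and by 0.07 without random 3. MYOF, a membrane repair protein, differed by 0.23 ± 0.12, with 2 of 3 probe sets positive and 1 at -0.12, and by 0.11 without random 3. TGFB1I1, the focal adhesion protein Hic-5, differed by 0.20 ± 0.15 and by 0.04 without aligned 3. CRIM1 and ASAP1 lay at 0.12 and 0.10, and at 0.03 and 0.02 without random 3. The 5 probe sets of ASAP1 ran from 0.07 to 0.40. FOXF2 lay at 0.09, and at 0.02 without aligned 3, and the RNA-binding protein gene RBMS3 at 0.00. The 5 probe sets of RBMS3 above the filter ran from -0.06 to 0.20, with 3 positive and 2 negative.

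PTPN14, a phosphatase that binds YAP and retains it in the cytoplasm, had a negative difference of -0.23 ± 0.17 (SE), with all 4 probe sets between -0.25 and -0.21. Without aligned 3 the difference was -0.07. It read 10.51, 10.50 and 10.00 on aligned and 10.63, 10.76 and 10.32 on random arrays. The groups overlapped, but each aligned array lay below the random array of its number, by 0.13, 0.26 and 0.32. ARHGEF17, which encodes a guanine nucleotide exchange factor, differed by -0.13 ± 0.08. DLC1, a GTPase-activating protein, read 4.42, 4.91 and 5.02 on aligned and 4.39, 4.46 and 4.35 on random arrays, all below the array medians. It was not among the 12381 genes. With no filter its difference of 0.39 had an unadjusted p of 0.0293 and an adjusted p of 0.526 in limma.

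The mean of the targets was low on 1 random array, which held for most but not all targets with a positive difference. Averaged over the 15 targets, log2 values relative to the mean of the random arrays were 0.16, 0.20 and 0.30 on aligned arrays 1, 2 and 3 and 0.14, 0.11 and -0.25 on random arrays 1, 2 and 3. Random 3 thus stood below the other 5 arrays. Random 3 was the lowest of the random arrays in 11 of 15 targets (73.3%), in 7 of 16 pathway parts (43.8%) and in 30.5% of all genes tested. It was the lowest of all 6 arrays in 9 of the 15 targets (60.0%) against 19.0% of all genes. The 11 targets include ANKRD1 and PTPN14, whose differences were negative. They do not include NT5E, AXL and FOXF2, whose positive differences were 1.05, 0.47 and 0.03 without random 3. Aligned 3 was the highest of the 6 arrays in 7 of the 15 targets (46.7%) against 33.5% of all genes. The pattern was noticed in these arrays and has no test.

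**Figure D4:**
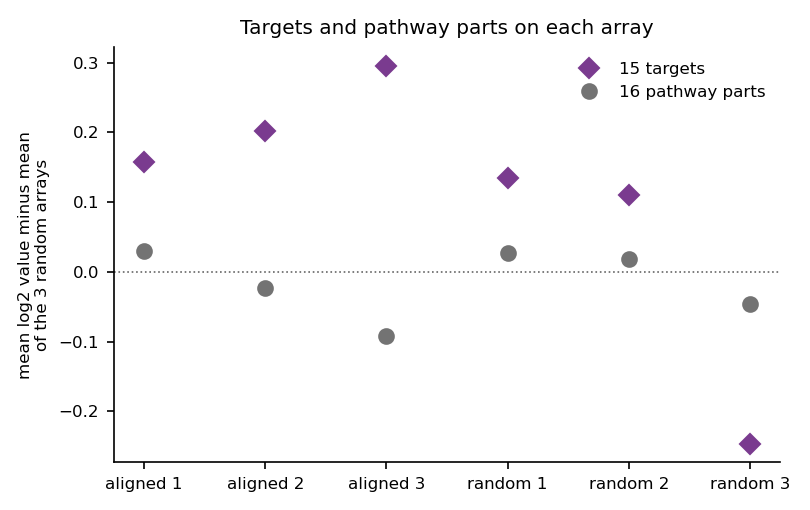
Mean log2 value of the 15 targets (diamonds) and 16 pathway parts (circles) on each array, relative to the mean of the 3 random arrays (dotted line at 0). Targets lie between 0.11 and 0.30 on 5 arrays and at -0.25 on random 3, while pathway parts lie between -0.09 and 0.03 on all 6.

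Without random 3 the median of the targets was 0.07 and that of the pathway parts -0.06. Without both arrays numbered 3, the ones farthest from the rest, the medians were 0.03 and 0.04. Taken pair by pair, the median difference of the targets was -0.04 for number 1, 0.08 for number 2 and 0.39 for number 3, with 7, 9 and 13 of 15 positive. For pathway parts the corresponding medians were 0.00, 0.00 and -0.13. The contrast of targets with pathway parts was 0.13, 0.22 and 0.39 on aligned arrays and 0.11, 0.09 and -0.20 on random arrays. Random 3 was the lowest. Each contrast is relative to the mean of the random arrays, so those of the random arrays average to 0 by construction.

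**Figure D5:**
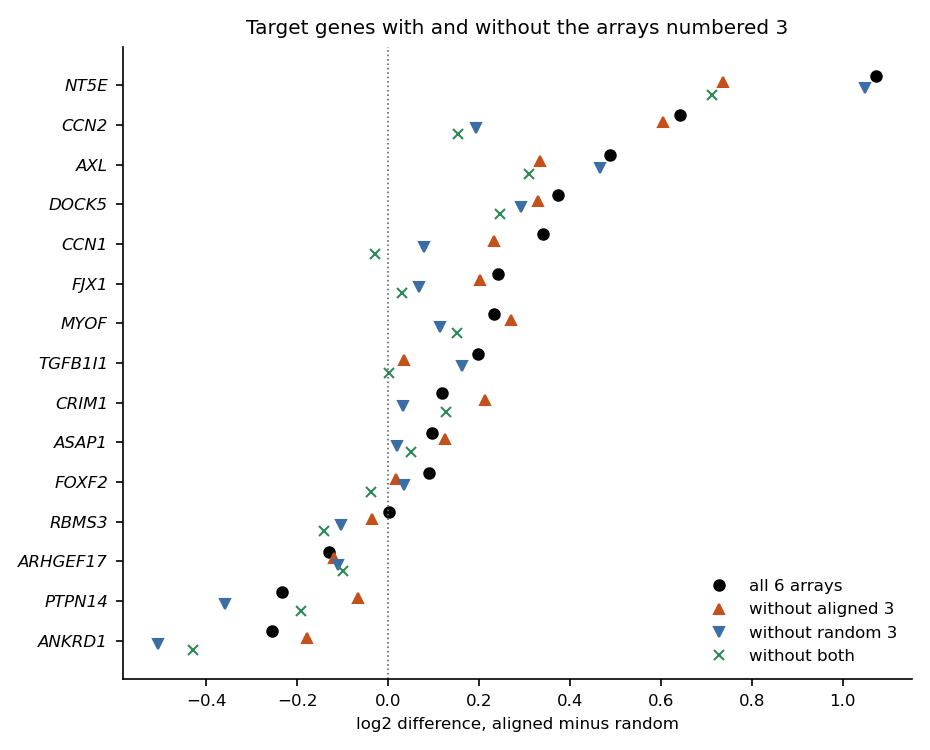
Log2 difference between aligned and random fibers for the 15 targets with all 6 arrays (black circles), without aligned 3 (orange), without random 3 (blue) and without both (green crosses). NT5E lies between 0.71 and 1.07 and DOCK5 between 0.25 and 0.37 in these 4 fits, whereas CCN2 is at 0.64 with all arrays and at 0.19 without random 3.

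Other pathway genes came from lists drawn up beside the members, also with earlier results of these arrays known, so their shares are descriptions. Of 28 further upstream regulators 24 were tested, 14 with a positive difference, and 4 had an unadjusted p under 0.05 in limma (16.7% against 10.5% of all genes), none with an adjusted one. FRMD6 encodes an activator of the cascade, and FAT4 a giant cadherin upstream of it. FRMD6 read 9.17 ± 0.43 on aligned and 8.45 ± 0.09 on random arrays (SD, n = 3 each), a difference of 0.71 ± 0.20 (SE), and FAT4 read 6.85 ± 0.26 and 7.33 ± 0.07, a difference of -0.47 ± 0.13. The groups did not overlap in FRMD6 and FAT4, nor in MAP4K4 and CSNK1E. Of the 24 genes, 3 had no overlap with aligned fibers higher (12.5%) and 2 with aligned fibers lower (8.33%). The shares over all genes were 8.71% and 9.33%. The kinase genes MAP4K4, which can act on LATS, and CSNK1E differed by 0.26 ± 0.11 and 0.29 ± 0.11, and by 0.17 and 0.17 without random 3. WWC2 and DCHS1 lay under the filter.

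Of 12 further targets, a list also drawn up with earlier results of these arrays known, 9 were tested, 6 with a positive difference. Of the 9, 3 had an unadjusted p under 0.05 in limma (33.3% against 10.5% of all genes), a share that describes the list. These were the coagulation receptor F3 at 0.67 ± 0.16 (SE), the growth arrest gene GADD45A at 0.67 ± 0.16 and the ligand TGFB2 at -0.30 ± 0.09. CCDC80, a secreted matrix protein, was the fourth by p at 0.47 ± 0.23, and at 0.20 without aligned 3. None had an adjusted p under 0.05 in limma, the lowest being 0.463. With the replicate number as a block, THBS1, the matrix protein thrombospondin, also lay under 0.05 (-0.41, unadjusted p = 0.0153 against 0.112 without the block, limma). It is named here after its values were seen. AREG was not analysed here, and CAVIN2 lay under the filter. Of the cofactors related to VGLL4, VGLL1 and VGLL3 were under the filter and VGLL2 differed by 0.23 ± 0.14 (unadjusted p = 0.144, and 0.0348 with the block, limma).

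Probe sets of the same gene mostly ran in the same direction. Of 21 pathway genes and targets with at least 2 probe sets above the filter, 13 had the same sign in all of them. The 31 genes had 85 such probe sets in all. Probe sets of a gene read the same RNA, so they are no further replicates.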

How the data were processed

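RNA of 6 cultures was read on 6 arrays. The deposited table holds log2 values. RMA, which corrects background and brings arrays to a common distribution, is the tool named in the submitters' processing notes; for its settings the sources used here give nothing. Groups and replicate numbers came from the sample titles. After removal of 62 control probe sets, a probe set was kept when it lay above the array median on at least 3 of 6 arrays, and each gene with a sole symbol in the platform annotation was represented by the kept probe set of highest mean, which left 12381 genes. Aligned minus random was fitted for all genes in R 4.3.3 by limma 3.58.1 (lmFit, then eBayes), with no covariate, 4 residual degrees of freedom and two-sided tests, and p-values were adjusted over all 12381 genes with the Benjamini-Hochberg method. The code was checked on data with known shifts in 12381 genes. The number of arrays limits the precision.

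The members and lists were chosen with earlier results of these data known. Values on every array were given for members with an unadjusted p under 0.05 and for members whose groups do not overlap. They were also given for YAP1, WWTR1, CCN1, CCN2, ANKRD1, LATS2 and AMOTL2. AXL, PTPN14 and DLC1 were added after their values were seen. Of each other pathway list up to 4 genes with the smallest unadjusted p were named, without the values of every array. Deviations from the group means correlated by 0.369, 0.322 and 0.109 between arrays of equal number, all above the limit of 0.1. Between arrays of unequal number the correlations ran from -0.426 to 0.188. The highest of these, aligned 2 with random 3, was above the limit too and above the pair numbered 3. A fit with the number as a block was run as an alternative, but the labels do not say what the numbers share. Unless the block is named, all values come from the fit without it. Alternatives changed the filter, the centring, the normalization, the prior, the array weights, the choice of probe set, the replicate block and the arrays included. Promoter sequences came from RefSeq on GRCh38.p14. Figures were drawn with matplotlib 3.10.9.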

Additional observations from a re-analysis of the deposited data

How the results depend on the processing

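The differences of 26 of the 31 genes kept their direction when each array was left out in turn. The exceptions ranged from -0.10 to 0.10 for TEAD1, -0.089 to 0.056 for SAV1, -0.17 to 0.13 for AMOTL2, -0.51 to 0.037 for ANKRD1 and -0.10 to 0.058 for RBMS3. Over these fits 624 to 2491 genes, 2 to 5 targets and 1 to 5 pathway parts had an unadjusted p under 0.05. Leaving out both arrays numbered 3, chosen after seeing the data, gave 584 genes, 0 pathway parts and a median of 0.030 for targets, and turned YAP1 (0.037), TEAD1 (0.044), AMOTL2 (-0.15), CCN1 (-0.029), RBMS3 (-0.14) and FOXF2 (-0.037). Array weights gave 4326 genes, 6 targets and 5 pathway parts, with a target median of 0.11 and 2101 genes at an adjusted p under 0.05 in limma, among them 8 of the 31. They rest on weights of 15.2 for aligned 2 and 0.245 for aligned 3, and turned YAP1 (0.058), TEAD1 (0.014), AMOTL2 (-0.11), RBMS3 (-0.033) and FOXF2 (-0.091). With the replicate number as a block 5 targets passed the unadjusted threshold, and no call at an adjusted p changed. A filter at the 75th percentile gave 851 genes. With no filter AXL joined NT5E and DOCK5 among the 15 targets under the unadjusted threshold. The mean of all probe sets gave 0 pathway parts and turned TEAD1 (0.086) and SAV1 (-0.060). Without probe sets of suffix _x_at or _s_at there was 1 pathway part, their median was 0.049, that of the targets was 0.096, and MYOF was at -0.12. VGLL4, TEAD3, SAV1, MOB1A, AXL and CRIM1 had only such probe sets above the filter and were absent from that fit. Its count and medians are therefore over fewer genes. Centring turned SAV1 (-0.0014) and RBMS3 (-0.0023). The cause was not tested. In data simulated on these 12381 genes, 89 of 100 genes shifted by 1 and 56 of 100 shifted by 0.5 had an adjusted p under 0.05 in limma. The simulated noise was independent between genes and between arrays, whereas the real arrays shared deviations over many genes. These counts check the code and do not give the power for the real arrays.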
